A study of Mus musculus with 9 samples.

Results

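Nuclear receptors such as the glucocorticoid receptor (GR) and the mineralocorticoid receptor (MR) act on transcription through coregulators, proteins that they recruit to DNA. Coactivators of the p160 family dock on the hormone-bound receptor and bring in histone acetyltransferases, and corepressors bring in histone deacetylases. The genes described here encode 9 of these proteins: the p160 coactivators Ncoa1 (SRC-1), Ncoa2 (GRIP1) and Ncoa3 (SRC-3), the acetyltransferases Crebbp (CBP) and Ep300 (p300), the PGC-1 coactivators Ppargc1a and Ppargc1b, and the corepressors Ncor1 and Nrip1 (RIP140). They were chosen by name among the 21911 protein-coding genes of GENCODE M21 on chromosomes 1 to 19, X and Y. A peak was counted for a gene when its summit lay in the gene body or within 20 kb of it. What was measured is binding of the receptors at these genes, not the level of their RNA or protein.

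The binding data are ChIP-nexus peaks from N2A cells, a mouse neuroblastoma line described as having no MR and GR of little activity. In ChIP-nexus the precipitated DNA is trimmed by an exonuclease up to the crosslinked protein. All cells were grown in charcoal-stripped serum and transiently transfected with both EGFP-GR and mCherry-MR, so every list describes tagged receptors supplied from plasmids in the presence of the other receptor. They received vehicle, 100 nM corticosterone (CORT) for 20 minutes, or the same CORT pulse followed by washing and 40 minutes without steroid (washout), and the receptors were precipitated through their tags, EGFP for GR and mCherry for MR. The 3 replicates of each condition had been combined into 1 peak list, so no value below has a replicate error and no test was made. By the study's account, only a minority of the CORT sites was called in more than a single replicate, a smaller one for GR than for MR. The combined lists do not mark those sites, so the replicate support of each peak named below is not known. Exact 95% intervals on counts and shares cover counting error only. Positions are on GRCm38 (mm10), 1-based.

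The GR lists held 64 peaks after vehicle, 10602 after CORT and 246 after washout, and the MR lists held 73, 14638 and 4885. Read depth is not known from these files, and where a list has no peak, binding was below what its depth and threshold could detect. Peak strength is given as −log10 p against input and as the rank in the list, where rank 1 is the strongest peak and peaks of equal value share a rank. Since −log10 p grows with depth, it is compared only within a list.

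After CORT, 8 GR peaks and 8 MR peaks lay in or near the 9 genes, and 5 MR peaks were listed in or near them after washout. No GR or MR vehicle peak and no GR washout peak was listed there. A GR peak after CORT was found at 5 of the genes (Ncoa1, Ncoa2, Ncoa3, Ppargc1b and Nrip1), an MR peak after CORT at 4 (Ncoa1, Ncoa3, Ppargc1b and Nrip1) and an MR peak after washout at 4 (Ncoa1, Ncoa2, Ncoa3 and Ppargc1b). Crebbp, Ep300, Ppargc1a and Ncor1 had no peak in any of the 6 lists. The GR peaks at Ncoa1, Ncoa2 and Nrip1 had ranks from 5190 to 9320 of 10602, in the middle and weaker parts of the list. The strongest GR peaks at Ncoa3 and Ppargc1b had ranks 581 and 2345.

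These counts have to be read against how often any gene was reached. After CORT, GR peaks reached 26.3% and MR peaks 30.2% of all protein-coding genes. After washout the shares were 1.02% for GR and 14.3% for MR, and after vehicle 0.11% for GR and 0.11% for MR. In any of the 6 lists the share was 35.6%, against 5 of the 9 coregulator genes. The coregulator genes are long, however, between 66.7 kb and 235 kb with a median of 113 kb, while the median protein-coding gene measures 17.4 kb, and longer genes hold more peaks. Among the 3017 protein-coding genes within that range of lengths, 39.6% had a GR peak after CORT, 45.6% an MR peak after CORT, 25.5% an MR peak after washout, and 51.8% a peak in any list. The shares of the coregulator genes, 55.6%, 44.4%, 44.4% and 55.6%, rest on 4 or 5 genes each, so that 1 gene more or less moves them by 11.1 percentage points. The widest gap is that of the MR washout list, and 2 of its 4 genes, Ncoa1 and Ppargc1b, were counted through a peak that lies in or nearest to a neighbouring gene. Ppargc1b was counted through such a peak in both CORT lists as well. The shares of all genes follow the same 20 kb rule, and no share limited to the nearest gene was computed for them. The shares also depend on the threshold: among peaks with a −log10 q of at least 5, GR reached 2 of the 9 genes after CORT and MR 3, and MR reached 1 after washout, with 15.6%, 20.98% and 8.55% of all protein-coding genes.

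**Figure D1:**
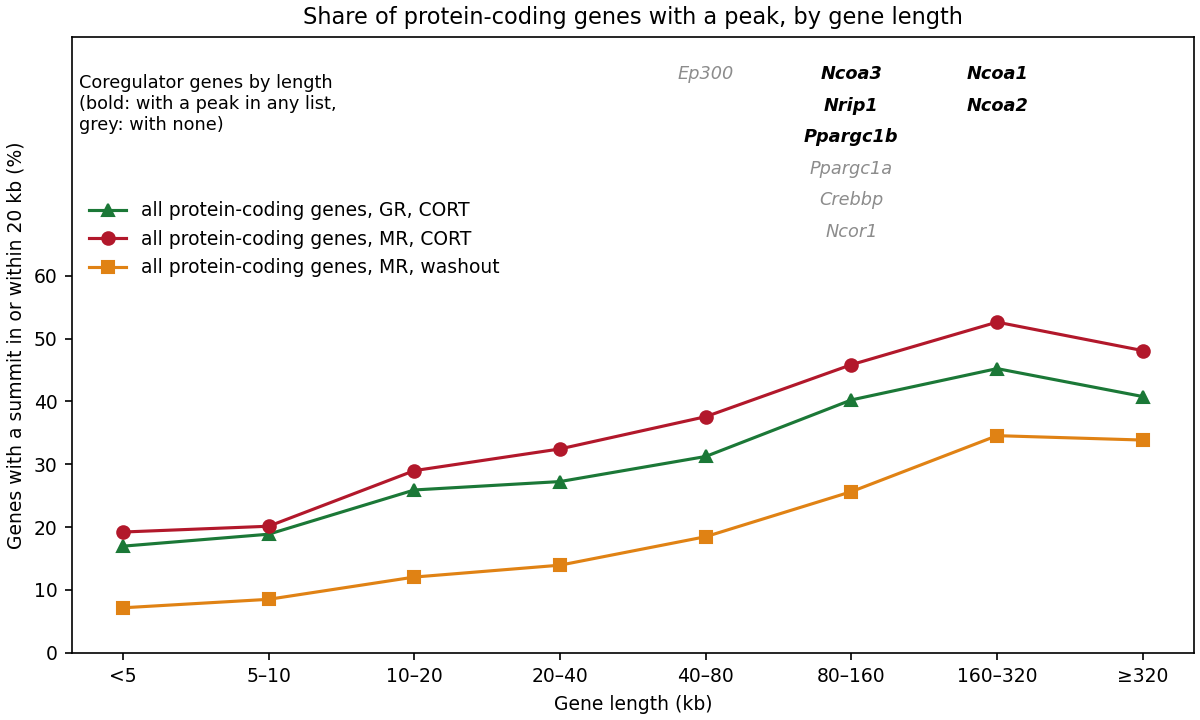
The lines give the percentage of all protein-coding genes, grouped by gene length in kb, with a GR peak after CORT, an MR peak after CORT or an MR peak after washout in the gene or within 20 kb. The names above place the 9 coregulator genes by length, in bold where a peak was listed in any list and in grey where none was; the share rises with length up to 160 to 320 kb, the group that holds Ncoa1 and Ncoa2.

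Counted per length, the 9 windows together span 1549 kb and held 0.516 GR peaks per 100 kb after CORT (95% interval 0.223 to 1.02), 0.516 MR peaks (0.223 to 1.02) and 0.323 MR peaks after washout (0.105 to 0.753). Over the windows of all protein-coding genes the same densities were 0.586, 0.80 and 0.262 peaks per 100 kb, and over genes in the same range of lengths 0.688, 0.953 and 0.305. All of these values lie inside the intervals of the coregulator genes. With 8 or 5 peaks, no difference in density from other genes was detectable.

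None of the 21 peaks lay within 1 kb of an annotated transcript start, of a coregulator gene or of any other protein-coding gene. Of all peaks in protein-coding windows, 12.9% of GR and 9.88% of MR peaks after CORT and 9.22% of MR peaks after washout did. With 0 of 8 peaks a share of up to 36.9% remains possible, and with 0 of 5 up to 52.2%. These list shares lie below both limits, so no lack of peaks near starts is shown. Merged where they overlap, the 21 peaks form 16 sites. The peak closest to the start of its gene was a GR peak 3674 bp into Nrip1, and the only one upstream of its gene lay 9721 bp before Ncoa3. In introns of the coregulator genes lay 11 of the peaks, none lay in their exons, and 9 lay beyond the 3′ end of the gene. With neighbouring genes included, 6 of the 8 GR and 7 of the 8 MR peaks after CORT lay in a protein-coding gene. So did 4 of the 5 MR peaks after washout. The shares over all protein-coding windows were 73.5%, 75.1% and 74.6%. The positions of all peaks along the genes are drawn in the map of summits.

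**Figure D2:**
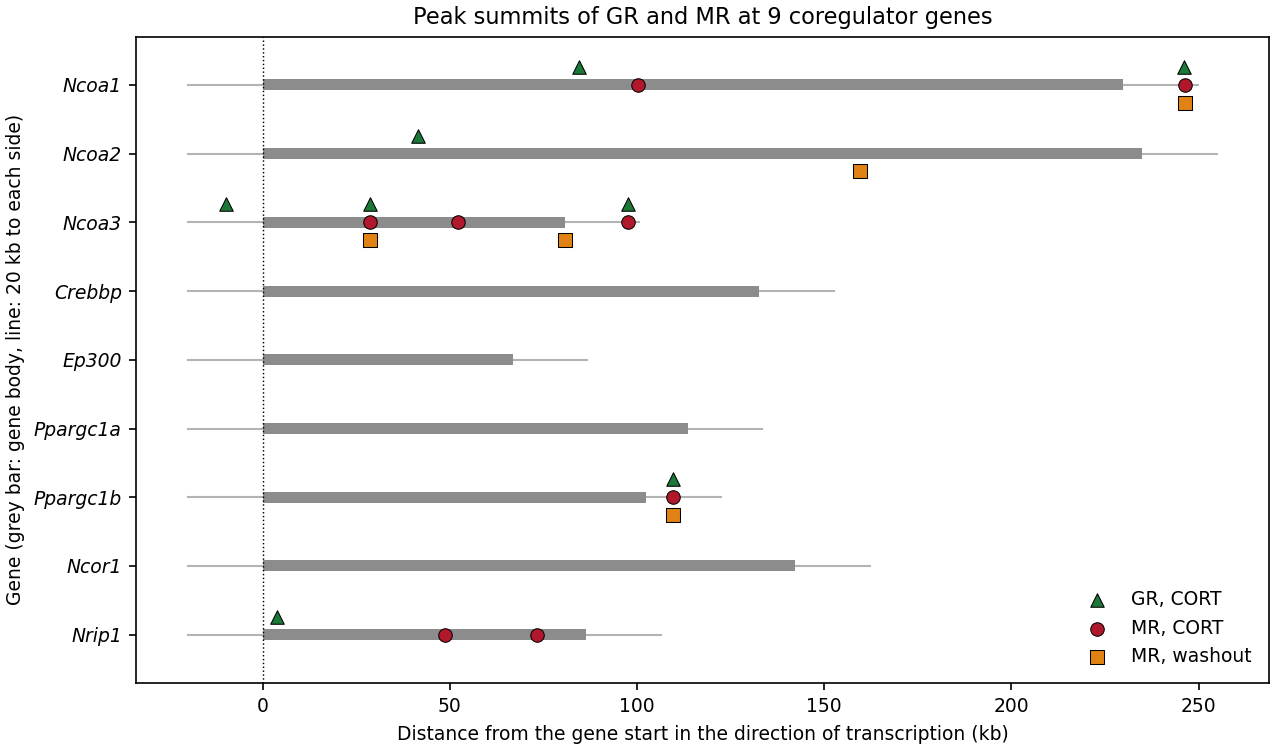
Each row is a gene, drawn from its start in the direction of transcription, with the distance in kb along the horizontal axis. Symbols mark the summits of GR peaks after CORT (triangles), MR peaks after CORT (circles) and MR peaks after washout (squares); Ncoa3 holds 8 of the 21 summits, and 4 rows hold none.

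Of the p160 coactivators, Ncoa3 (ENSMUSG00000027678, chromosome 2, 165992636 to 166073242, plus strand, 80.6 kb) carried the most and the strongest peaks: 3 GR and 3 MR peaks after CORT and 2 MR peaks after washout. As background, 14.0% of genes in the range of lengths had 3 or more GR peaks and 20.0% had 3 or more MR peaks after CORT. The strongest site lies in intron 1, 28.6 kb from the gene start, where GR and MR peaks after CORT and an MR peak after washout overlapped. Their summits lay within 13 bp of each other. The GR peak there had a −log10 p of 18.1 and rank 581 of the list, the MR peak after CORT 19.3 and rank 957, and the MR peak after washout 13.2 and rank 932. In both CORT lists this is the highest value of any peak at the 9 genes, and it lies in the strongest quintile (20%) of each list.

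The MR peak after CORT at this site is printed whole because it is the site at a coregulator gene that was listed for both receptors and again after washout within an intron of the gene itself. Capitals mark the best match near the summits to the glucocorticoid response element (GRE), the palindrome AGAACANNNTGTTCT that GR and MR share. Sequences are those of the plus strand, 5′ to 3′.
Ncoa3 intron 1, chr2:166021146-166021369: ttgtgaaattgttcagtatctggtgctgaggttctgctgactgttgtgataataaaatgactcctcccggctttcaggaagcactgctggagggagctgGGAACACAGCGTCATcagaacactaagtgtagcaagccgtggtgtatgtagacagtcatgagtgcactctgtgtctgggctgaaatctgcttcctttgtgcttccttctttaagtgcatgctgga
This match differs from the palindrome in 4 of its 12 fixed bases (A1G, T10C, T13C and C14A, counted from 1 at the 5′ end, consensus base first). It lay 2 bp from the MR summit after CORT, 6 bp from the GR summit and 7 bp from the MR summit after washout. The strongest coregulator site therefore held no GRE match at the limit of 3 mismatches used for the lists, although an exact copy of its left hexamer, AGAACA, follows the capitals in lower case.

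The second site shared by the receptors at Ncoa3 lay 17.0 kb beyond the end of the gene, in an intron of Sulf2, which encodes an extracellular sulfatase and is the nearest gene to it. The GR peak (chr2:166090189-166090323) had a −log10 p of 12.8 and rank 1660, and the MR peak (chr2:166090211-166090292) 10.6 and rank 4705, with summits 14 bp apart. No washout peak was listed there. Another position, 87 bp beyond the end of Ncoa3 and in a UTR of the convergent gene Sulf2, 240 bp from the end of that gene, was listed only for MR after washout (−log10 p 9.63, rank 2271). The remaining peaks at Ncoa3 were an MR peak after CORT in intron 2, 52.2 kb from the start (7.73, rank 10263), and the GR peak upstream of the gene (6.41, rank 9068), which lies in introns of the noncoding genes Platr29 and Gm11464. Both were weaker than the median of their lists, which was 8.66 for GR and 9.17 for MR.

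GRE matches with at most 3 mismatches were found at 5 other positions whose sequence is shown here, 2 of them at Ncoa3. They are printed to let the quality of the matches be seen, again with the best match in capitals.
Ncoa3, beyond the 3′ end, GR and MR after CORT, chr2:166090221-166090265: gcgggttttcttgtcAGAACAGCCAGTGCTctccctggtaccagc
Ncoa3, at the 3′ end, MR after washout, chr2:166073323-166073351: cgaggtcGGAACAGTTCGTTCTcctggga
Ncoa1, intron, GR after CORT, chr12:4392729-4392773: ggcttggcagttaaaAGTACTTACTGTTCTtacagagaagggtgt
Nrip1, intron 3, MR after CORT, chr16:76300420-76300464: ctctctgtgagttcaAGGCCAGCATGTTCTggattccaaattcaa
Ncoa2, intron 4, MR after washout, chr1:13214580-13214624: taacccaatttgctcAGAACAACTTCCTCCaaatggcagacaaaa
The matches at Ncoa3, Ncoa1 and Nrip1 have 2 mismatches each: T10A and T13G beyond the 3′ end of Ncoa3, A1G and T10C at its 3′ end, A3T and A6T in Ncoa1, and A3G and A4C in Nrip1. The match in Ncoa2 has 3 (G11C, T12C and T15C), all in the second arm of the palindrome. Of the peaks around them, 86.4% of the Ncoa1 peak and 79.1% of the Nrip1 peak is sequence masked as repetitive in the assembly.

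Within 100 bp of the summit, 3 of the 8 GR peaks (37.5%, 8.52% to 75.5%) and 3 of the 8 MR peaks after CORT (37.5%, 8.52% to 75.5%) held a GRE with at most 3 mismatches, and 3 of the 5 MR peaks after washout did (60%, 14.7% to 94.7%). The match beyond Ppargc1b enters all 3 of these counts and that in Sulf2 both CORT counts, so the shares are not independent. The whole lists gave 37.7%, 39.9% and 45.5%, and windows of the same length 1000 bp to either side of the summits 14.6%, 15.2% and 15.3%. The exact hexamer AGAACA on either strand was near 5 of the 8 GR peaks, 5 of the 8 MR peaks after CORT and 2 of the 5 after washout, against 32.5%, 34.2% and 35.0% of the lists and 16.1%, 17.0% and 16.3% of the flanking windows. The list shares lie inside the intervals, 24.5% to 91.5% for 5 of 8 and 5.27% to 85.3% for 2 of 5. Among the hexamer counts, the intron 1 site of Ncoa3 enters all 3 and the shared place in Sulf2 both CORT counts. The AP-1 consensus TGANTCA was near none of the peaks, where the lists held it at 11.2%, 10.1% and 11.7% and the flanking windows at 6.10%, 6.19% and 5.84%. A count of 0 of 8 allows a share of up to 36.9%, so the absence of AP-1 matches is within what 8 peaks can give. A match to letters is a description of sequence and does not show which protein was bound.

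Ncoa1 (ENSMUSG00000020647, chromosome 12, 4247362 to 4477182, minus strand, 230 kb) had 2 GR and 2 MR peaks after CORT and 1 MR peak after washout, none of which overlapped another. In the gene body the GR peak stood 84.4 kb and the MR peak 100.3 kb from the start, in introns of longer transcripts. Both are weak, with −log10 p of 6.15 (rank 9320) and 6.28 (rank 12765), in the weakest quintile of their lists. The other 3 peaks stood next to each other beyond the 3′ end of Ncoa1, 16.4 kb to 16.6 kb past it, in an intron of Cenpo, which encodes a centromere protein. From the GR peak (chr12:4230971-4231051) to the MR peak after CORT (chr12:4230848-4230889) there were 81 bp, and from there to the MR washout peak (chr12:4230705-4230751) 96 bp. Their −log10 p values were 7.38 (rank 7262), 7.83 (rank 8979) and 8.95 (rank 2903), so by the rule of at least 1 shared bp this place counts as 3 separate sites. No GRE with at most 3 mismatches was near any of these 3 summits.

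Ncoa2 (ENSMUSG00000005886, chromosome 1, 13139105 to 13374083, minus strand, 235 kb), the longest of the 9 genes, had 1 GR peak after CORT, in intron 1, 41.5 kb from the start (chr1:13332466-13332637, −log10 p 8.66, rank 5190). It had no MR peak after CORT but 1 after washout in intron 4, 160 kb from the start (chr1:13214559-13214613), which with −log10 p 5.86 and rank 4623 was near the bottom of that list. Across the p160 family, then, Ncoa3 was the shortest gene and had 8 peaks, while Ncoa1 had 5 and Ncoa2 had 2. These counts add the lists, so a place with overlapping peaks counts more than once. At Ncoa3, 3 of the peaks lay at the intron 1 site and 2 at the shared place in Sulf2. None of the Ncoa1 peaks overlapped another, so the counts do not rank the genes by number of separate places.

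Neither acetyltransferase gene had a peak. CBP and p300 are closely related enzymes that acetylate histones at enhancers and promoters and serve many transcription factors besides steroid receptors. For Ep300 (ENSMUSG00000055024, chromosome 15, 81585351 to 81652077, plus strand) the nearest peaks lay outside the 20 kb limit but were strong: 61.8 kb upstream, GR after CORT had a −log10 p of 24.5 (rank 196), MR after CORT 27.2 (rank 310) and MR after washout 18.1 (rank 403). The nearest gene to that site was Rbx1, at 47.2 kb, and its best GRE match had 2 mismatches. Around Crebbp (ENSMUSG00000022521, chromosome 16, 4081328 to 4213997, minus strand) the nearest GR peak after CORT was 59.3 kb upstream (7.38, rank 7262), the nearest MR washout peak 57.2 kb upstream (6.37, rank 4524) and the nearest MR peak after CORT 249 kb downstream (9.95, rank 5874). The GR peak and the MR washout peak lay closer to Adcy9, an adenylate cyclase gene, than to Crebbp. The best GRE match had 4 mismatches at that GR peak, 5 at the MR washout peak and 4 at the MR peak after CORT. As a scale for these distances, the median protein-coding gene was 56.8 kb from the nearest CORT peak of either receptor, and 49.2% of genes were at least as far from one as Crebbp.

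Of the PGC-1 coactivators, which drive genes of mitochondrial biogenesis and energy metabolism, only Ppargc1b had peaks. Ppargc1a (ENSMUSG00000029167, chromosome 5, 51454250 to 51567726, minus strand) lay in the emptiest surroundings of the 9 genes: the nearest CORT peaks of GR and of MR were both 1439 kb downstream, in Adgra3, and the nearest MR washout peak was 1013 kb upstream. Of all protein-coding genes, 5.67% were as far from a CORT peak, and 4.41% of those in the range of lengths.

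At Ppargc1b (ENSMUSG00000033871, chromosome 18, 61298136 to 61400431, minus strand, 102 kb) GR and MR peaks after CORT and an MR peak after washout overlapped at a single place 7.3 kb to 7.4 kb beyond the 3′ end, outside any annotated gene and closer to Pde6a, a phosphodiesterase gene of photoreceptors. The GR peak had a −log10 p of 11.4 (rank 2345), the MR peak 10.6 (rank 4705) and the washout peak 7.05 (rank 3999). The best GRE match there had 3 mismatches.

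Ncor1 (ENSMUSG00000018501, chromosome 11, 62316426 to 62458541, minus strand), which encodes the corepressor NCoR that holds deacetylase complexes on chromatin, had no peak in its window. Its nearest site was 100.6 kb upstream, 5.9 kb from the ubiquitin gene Ubb, and was listed for GR after CORT (−log10 p 18.7, rank 480), MR after CORT (19.6, rank 823) and MR after washout (9.01, rank 2521). Nrip1 (ENSMUSG00000048490, chromosome 16, 76287400 to 76373827, minus strand, 86.4 kb), which encodes a corepressor that binds agonist-bound receptors, had 1 GR and 2 MR peaks after CORT, at different places and all in introns. The GR peak in intron 1 was 3674 bp from the start of the gene (chr16:76370111-76370231) and weak, with −log10 p 6.15 and rank 9320. The stronger MR peak lay in intron 3, 48.8 kb from the start and 1412 bp before the nearest annotated transcript start (chr16:76325060-76325124, −log10 p 11.98, rank 3406), and the weaker one 73.4 kb from the start (chr16:76300395-76300461, 7.83, rank 8979). Nrip1 was the only gene of the 5 with peaks that had none after washout.

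By role, peaks were listed at 3 of 3 p160 genes, 0 of 2 acetyltransferase genes, 1 of 2 PGC-1 genes and 1 of 2 corepressor genes, with 51.8% for all genes in the range of lengths. Groups of 2 or 3 genes cannot show a difference between roles, and none was tested.

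**Figure D3:**
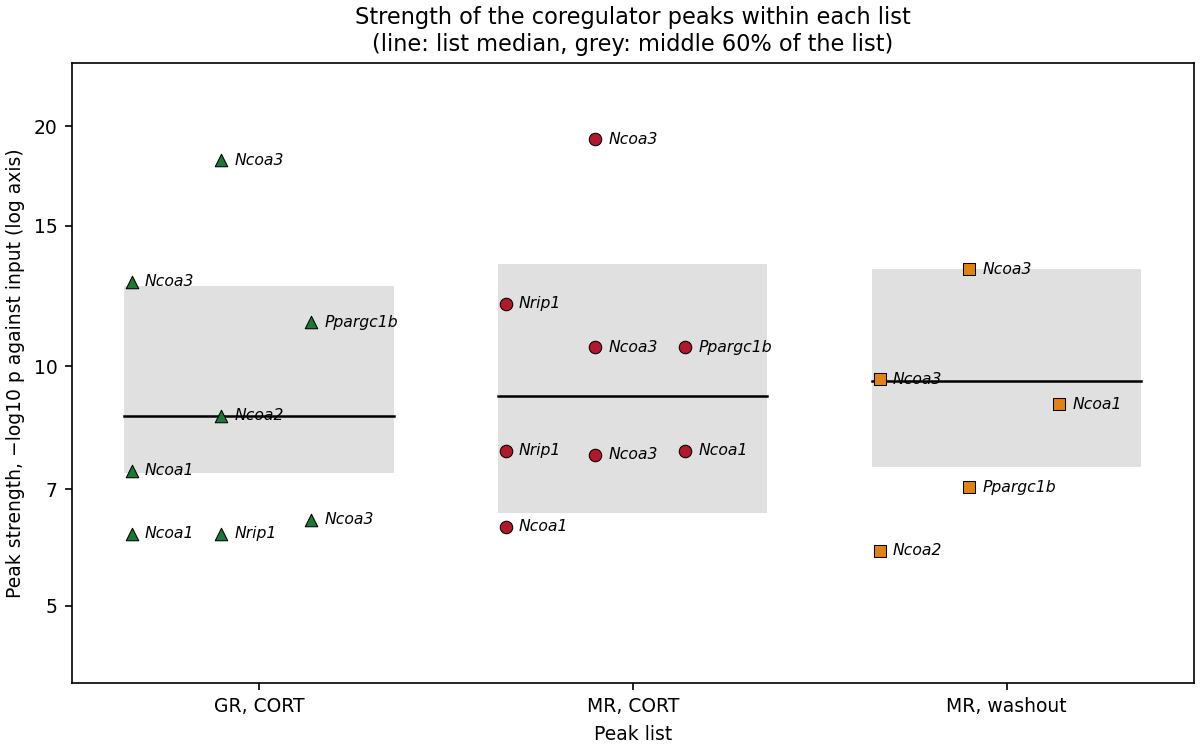
The −log10 p of each coregulator peak, on a log axis, is shown within the GR CORT, MR CORT and MR washout lists; the line is the list's median and the grey box spans the middle 60% of the list. Peaks in intron 1 of Ncoa3 are the highest coregulator peaks of each list (18.1, 19.3 and 13.2), and 3 of the 8 GR, 4 of the 8 MR and 2 of the 5 washout peaks lie above their list's median.

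Of the 8 GR peaks after CORT, 3 overlapped an MR peak after CORT (37.5%, 8.52% to 75.5%), and the same was true of 3 of the 8 MR peaks. Over the whole lists 61.0% of GR and 47.6% of MR peaks overlapped one of the other receptor, so both list values lie within the intervals. When only peaks reaching a −log10 q of 5 were counted, sharing at the coregulator genes was 100% of 3 GR peaks and 75% of 4 MR peaks. The shared sites were intron 1 of Ncoa3, the place beyond its 3′ end in Sulf2, and the place beyond Ppargc1b. Sharing went with strength in the lists: 93.1% of GR peaks in the strongest quintile overlapped an MR peak and 36.8% in the weakest, and the 3 shared GR peaks stood in the strongest quintile (2 peaks) and the next one (1 peak). The 5 unshared GR peaks stood in the 3 lower quintiles, 3 of them in the weakest. Among the MR peaks, the shared ones likewise stood in the upper 2 quintiles, as did 1 unshared peak, that of Nrip1.

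After washout, none of the 8 GR CORT peaks was overlapped by a GR peak (0 of 8, which allows up to 36.9%), where 2.13% of the whole list was. Of the 8 MR CORT peaks, 2 were overlapped by an MR washout peak (25.0%, 3.19% to 65.1%), against 24.6% of the list. Those 2 were the Ncoa3 intron site and the Ppargc1b site, where GR had been listed after CORT and was no longer listed. The shared site in Sulf2 was listed for neither receptor after washout. Seen from the washout list, 2 of the 5 MR peaks overlapped an MR CORT peak (40.0%, 5.27% to 85.3%), against 75.7% of the list. The other 3, at the 3′ end of Ncoa3, in intron 4 of Ncoa2 and in Cenpo beyond Ncoa1, stood at ranks 2271, 4623 and 2903 of 4885.

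Border pairs, which bound the stretch that a protein shielded from the exonuclease, were called separately with MACE. In the 9 windows there were 3 MR pairs after CORT (1.94 per Mb, with 1.58 per Mb over the windows of all protein-coding genes) and 2 after washout (1.29 per Mb, with 0.668), and none after vehicle for MR or in the GR lists. The GR list after CORT, as used here, holds 139 pairs, against 3285 for MR. The study reports many more GR pairs than this list holds, and for MR the same number, so the GR list used here is incomplete. Nothing is therefore read from its lack of pairs at these genes. Over all windows it has 0.0497 pairs per Mb, and nothing is read from that value either. A pair of 97 bp in the MR CORT list (chr2:166021327-166021423) overlapped the outer ends of the 3 peaks in intron 1 of Ncoa3, but its middle lay 117 bp from the nearest of their summits and it does not cover the match printed in capitals. Both MR lists had a pair at the Ppargc1b site, with the middle 92 bp (CORT) and 5 bp (washout) from the nearest summit. For both pairs that was the summit of the GR peak after CORT, and the MR summits lay farther away. An MR pair after CORT in Crebbp (chr16:4140624-4140715) and an MR pair after washout 3.8 kb upstream of Ncoa3 had no peak. Input chromatin gave 1 pair after vehicle, 1 after CORT and 3 after washout in these windows (0.646, 0.646 and 1.94 per Mb, with 2.51, 2.13 and 2.05 per Mb over all windows), and none of these overlapped a peak.

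The pattern was set beside 37 other coregulators and subunits of the complexes they recruit, a list put together by function. A peak in any list was found at 15 of them and none at 22, where 35.6% of all protein-coding genes had one. After CORT, GR reached 12 of them and MR also 12, with 10 reached by both, which is 32.4% for each receptor, with 26.3% and 30.2% for all protein-coding genes. After washout 11 had an MR peak (29.7%, with 14.3% for all protein-coding genes) and none a GR peak. These genes, too, were longer than most, with a median of 52.2 kb.

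The 4 genes with the highest-ranking peaks in the CORT lists were Smarcd1, a subunit of SWI/SNF chromatin remodelling complexes, Prmt1, an arginine methyltransferase that modifies histones, Ncoa7, a coactivator of another family than p160, and Kmt2c, a methyltransferase of histones. Smarcd1 (11.9 kb long) had 4 GR and 3 MR peaks after CORT and 2 MR peaks after washout, all outside the gene. At least as many were found at 3.69%, 8.84% and 5.01% of all protein-coding genes. The strongest GR peak stood 10.9 kb upstream of it (22.3, rank 277) and the strongest MR peak 13.4 kb from its start, past its 3′ end (27.1, rank 314). Prmt1 had 1 peak in each of these 3 lists, 11.76 kb to 11.95 kb from its start and past the gene (15.7 for GR, 19.6 and 9.01 for MR). At Ncoa7 the GR peak, 17.0 kb into the gene (15.7, rank 861), was overlapped by an MR peak after CORT, and the same place held 3 MR washout peaks. At least 3 MR washout peaks were found at 2.21% of all protein-coding genes. At Kmt2c a single place 202 kb into the gene was listed for GR after CORT (13.9, rank 1480), MR after CORT (17.8, rank 1220) and MR after washout (25.9, rank 122), and its best GRE match had 2 mismatches. At the strongest CORT peaks of Smarcd1 the best match had 5 mismatches for GR and 3 for MR. Prmt1 had 5 at its GR and MR peaks after CORT and 2 at its washout peak. At the strongest Ncoa7 peaks of GR and MR after CORT it had 4.

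**Figure D4:**
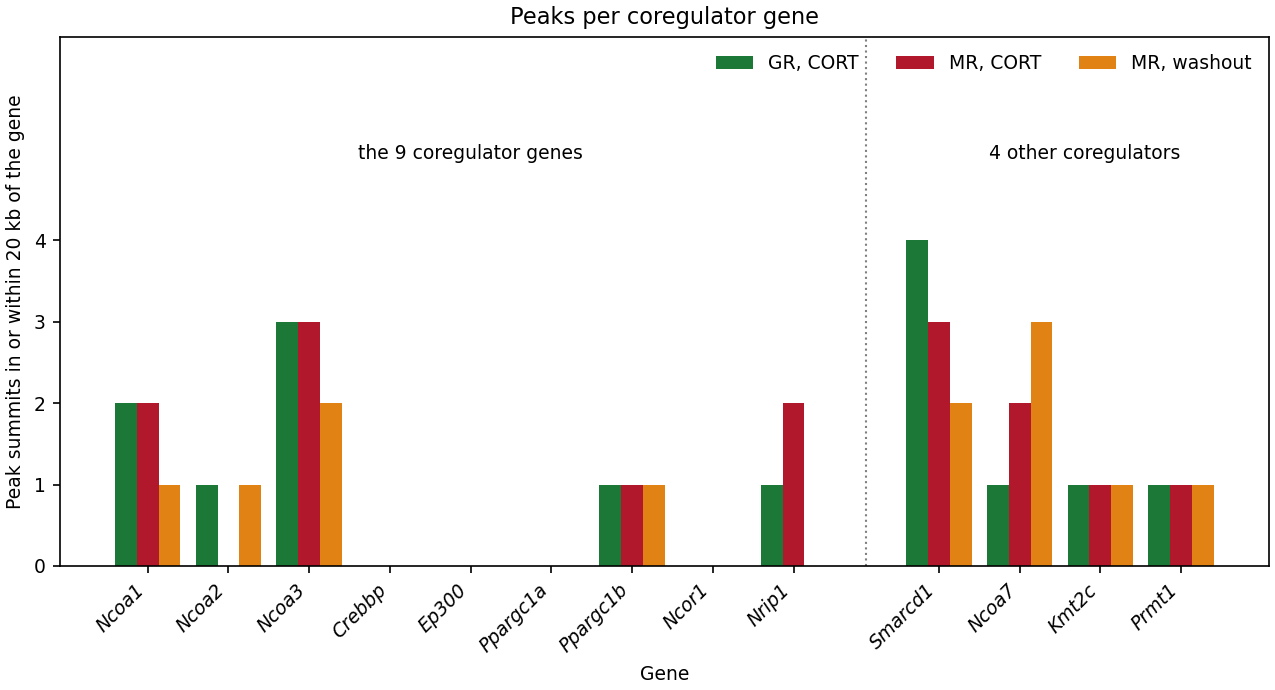
Bars give the number of peak summits in or within 20 kb of each gene for GR after CORT, MR after CORT and MR after washout. The 9 coregulator genes have at most 3 peaks per list, as do the 4 others named except Smarcd1, which has 4 GR peaks after CORT.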

How the data were processed

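GR and MR ChIP-nexus was measured in 9 samples: GR, MR and input after each of 3 treatments. The authors quality-trimmed the reads, mapped them with Bowtie2 to GRCm38 (mm10), removed duplicates by random barcode, kept uniquely mapped reads, and called peaks on combined replicates with MACS2 2.1.1.20160309 at a false discovery rate of 0.05 against input, and border pairs with MACE. Each peak has a deposited score, which is −log10 q times 10 without its decimals for all peaks but 1, an MR washout peak. In −log10 units the authors give p and q of each peak, q in the column named as fold enrichment. For border pairs the deposited p-value comes from MACE, except that the GR CORT list carries none. The deposited description names mouse receptors, while the methods of the study name rat GR and MR.

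Depth is not given by these files. The number of peaks sets the width of the intervals (exact Clopper-Pearson for shares, exact Poisson for densities), which cover counting error only. Summits were assigned to genes of GENCODE M21 within 20 kb, an overlap meant at least 1 common bp, and ranks were taken by −log10 p with ties given the best rank. The main transcript of a gene, used to number introns, is the one with the longest coding sequence. GRE matches were read from the RefSeq copy of GRCm38 within 100 bp of the summit, with at most 3 mismatches. The palindrome reads the same on both strands. No sequence is shown for Ppargc1b.

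The members and the list of 37 further coregulators were chosen with earlier results of these data known, and the hexamer and AP-1 counts and the distances to the nearest peak were added after the peaks had been seen. All 9 genes are described. Of the 37, those named are among the 3 genes with the highest-ranking peaks in the CORT list of either receptor, and none had a GR peak after washout. Of the list as first drawn up, 1 gene is not reported here. Alternatives changed the distance to a gene, the threshold on −log10 q, the gene set, the overlap, and the mismatches and window of the GRE. The overlap, window counts and GRE search were tested on simulated data with planted answers. Computations used Python 3.11.15, numpy 2.4.6, pandas 2.3.3, scipy 1.17.1 and matplotlib 3.10.9.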

Additional observations from a re-analysis of the deposited data

How the results depend on the processing

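Of 73 alternative values for 18 results, 45 kept to the value reported and 28 moved. A count or a share of all genes kept to it when within 1.5 times, and a share of the few coregulator peaks when inside its exact 95% interval, which is wide. The direct reason for most of the moves is the construction of the alternative, since a narrower window or a higher threshold can only remove peaks. With the gene body alone there were 4 GR and 5 MR peaks after CORT and 2 MR peaks after washout at 2 genes, and within 5 kb there were 4, 5 and 3, the last at 2 genes. Within 50 kb there were 18, 20 and 11 peaks. Counting only peaks for which the gene was the nearest protein-coding gene left 5, 5 and 2 peaks, with the washout peaks at 2 genes. Peaks with a −log10 q of at least 5 numbered 3 for GR at 2 genes, 4 for MR after CORT, and 2 for MR after washout at 1 gene, and all of those GR peaks (100%) were shared with MR, as were 75% of those MR peaks with GR, a value inside the wide interval. Likewise inside its interval, the share of MR CORT peaks kept after washout was 12.5% when an overlap of 50% of the shorter peak was asked for. At a −log10 q of at least 5, 15.6% of protein-coding genes had a GR peak after CORT and 8.55% an MR peak after washout. With all peaks but only within 5 kb, the latter share was 9.41%. With up to 4 mismatches 7 GR and 7 MR peaks after CORT and all 5 MR washout peaks held a GRE, and with at most 2 mismatches 1 washout peak did. No GR washout peak was counted at any distance or threshold tried. No paired analysis was possible because each condition has 1 list.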
